A study of Rattus norvegicus with 25 samples.

Results

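Muscle miRNAs were examined in the sperm small RNA (smRNA) libraries of rat sires. Rows of the miRNA count matrix were taken by name, that is, every arm of miR-143, miR-145, miR-1, miR-133a, miR-133b, miR-206 and miR-490. These were 11 of the 562 mature miRNAs counted. Of these, 4 came from the miR-143 and miR-145 cluster of smooth muscle, 5 from the striated muscle miRNAs miR-1, miR-133 and miR-206, and 2 from miR-490.

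Sperm came from the cauda epididymis of Sprague–Dawley F0 males that had pressed a lever for intravenous morphine (0.75 mg/kg per infusion) or saline, each day for 3 h, during 60 days. It was collected when self-administration ended, giving 7 saline (F0_SAL) and 7 morphine (F0_MOR) samples. In further males it was collected after 90 days of abstinence, giving 5 saline (F0_ABS-SAL) and 6 morphine (F0_ABS-MOR) samples. The abstinent males were also older at collection, and the batches in which libraries were prepared are not given in the sources used here, so abstinence, age and any such batch cannot be told apart in the timepoint comparisons.

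A mature miRNA is cut from a hairpin, whose 5p and 3p arms can both be kept, and it pairs with mRNAs mainly through its seed. miR-143 and miR-145 are made from 1 shared transcript, are abundant in smooth muscle cells and fibroblasts, and hold smooth muscle in its contractile state, with the transcription factor Klf4 among the known targets of miR-145. miR-1 and miR-133a share transcripts in heart and skeletal muscle, where miR-1 favours differentiation and miR-133a restrains the smooth muscle gene program, while miR-206 and miR-133b belong to skeletal muscle. The hairpin of miR-490 lies in the gene of the muscarinic receptor Chrm2, which is used in smooth muscle and heart.

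The mature sequences are shown for the arm of each hairpin with more reads, and for both arms of miR-145, because they separate families that counting can tell apart from those it can hardly tell apart. They are RefSeq sequences (rat assembly GRCr8), 5′ to 3′, with the seed, bases 2 to 8, in capitals.
rno-miR-143-3p: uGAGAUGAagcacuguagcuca
rno-miR-145-5p: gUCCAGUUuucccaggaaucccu
rno-miR-145-3p: gGAUUCCUggaaauacuguuc
rno-miR-1-3p: uGGAAUGUaaagaaguguguau
rno-miR-206-3p: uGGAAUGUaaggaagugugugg
rno-miR-133a-3p: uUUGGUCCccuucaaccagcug
rno-miR-133b-3p: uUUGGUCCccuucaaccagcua
rno-miR-490-3p: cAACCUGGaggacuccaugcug

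The arms of both smooth muscle miRNAs shared no seed with each other or with the striated miRNAs. miR-1-3p and miR-206-3p had the same seed and differed at 3 bases, A11G, A21G and U22G, counted from 1 at the 5′ end with the base of miR-1-3p first. miR-133a-3p and miR-133b-3p differed only by G22A at the last base. The authors allowed 1 mismatch in alignment, and their settings counted it only over the leading bases of a read, short of base 21. Within these bases miR-133a-3p and miR-133b-3p did not differ, and miR-1-3p and miR-206-3p differed only by A11G. Reads of either pair may therefore have been split between rows, and the separate counts within both pairs are uncertain. All 11 members had a RefSeq sequence.

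In the same assembly, which is not the build the authors aligned to, the miR-143 and miR-145 hairpins lay on chromosome 18 (minus strand, positions 57371349 to 57371453 and 57369983 to 57370070) with 1278 bases between them. The miR-1 and miR-133a hairpins lay 2368 bases apart on chromosome 18, and those of miR-206 and miR-133b 3801 bases apart on chromosome 9. The hairpin of miR-490 was on chromosome 4.

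The reads counted on miRNAs numbered 1032386 to 3203211 per library, so that 3 reads, taken here as the smallest count that can be told from none, were a share of 0.937 to 2.91 CPM (counts scaled to the library total). This limit covers counting error only. The male germ cell list of 20 miRNAs, led by the sperm miRNA miR-34c-5p, held 26.4% to 60.5% of the counts of a library. TMM factors, which scale each library by the bulk of its miRNAs, were 0.701 to 1.09 in nonabstinent and 0.950 to 1.26 in abstinent libraries. Counts were compared with edgeR's quasi-likelihood test in 1 model with the 4 groups, and a miRNA was called where its p, adjusted by Benjamini–Hochberg, was under 0.1 and its log2 fold change passed 0.58 up or down. The filter on low counts left 317 miRNAs, among them 7 of the 11 members. Adjusted p-values are over these 317, and standard errors (SE) and 95% intervals of the fold changes are approximated from the test statistic.

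miR-143-3p was among the most abundant miRNAs of these libraries and all the other members were scarce. By mean share of miRNA counts, miR-143-3p ranked 8 of 562, miR-145-3p 130, miR-145-5p 135 and miR-143-5p 216. The low-count members ranked 271 (miR-1-3p), 279 (miR-133a-3p) and 301 (miR-490-3p). Over the 25 libraries, miR-143-3p had 1044084 reads against 422 for miR-1-3p and 350 for miR-133a-3p. The 4 members below the filter had 57 (miR-206-3p), 39 (miR-490-5p), 11 (miR-133b-3p) and 5 reads (miR-133a-5p). These are levels of mature sequences of similar length, and they also carry the ligation preferences of the library kit.

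Members were called in the comparisons between timepoints only. The miR-143 and miR-145 cluster made up 4 of the 7 members tested. Of its arms, 3 were called between the saline groups and 2 between the morphine groups. Of the 2 striated members tested, 1 and 0 were called, and miR-490-3p was called between the saline groups only. Between F0_ABS-SAL and F0_SAL, miR-143-3p, miR-143-5p, miR-145-5p, miR-133a-3p and miR-490-3p were called higher after abstinence, 5 of the 7 members tested, while 22.4% of all miRNAs tested were called higher and 10.7% lower (33.1% either way). Between F0_ABS-MOR and F0_MOR, miR-143-3p and miR-143-5p were called higher, 2 of the 7, where 11% of all miRNAs tested were called higher and 10.1% lower (21.1% either way). Scaling by total count alone instead gave 110 miRNAs called higher and 1 lower in the saline comparison and 57 higher and 14 lower in the morphine comparison. No member was called lower in any comparison under any of these settings. The median log2 fold change of the 7 members was 1.54 in the saline and 0.55 in the morphine comparison, beside 0.0018 and 0.0015 over all 317. Among the members tested, miR-490-3p passed the filter through the groups in which it was higher. miR-133a-3p did not pass with only F0_MOR and F0_SAL in the model. The counts and medians of members are therefore descriptions and not a test of the members as a set.

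The share of miR-143-3p in the miRNA counts of F0_SAL ran from 1.06% to 1.59%, and in F0_MOR from 1.25% to 1.62%. In F0_ABS-SAL it was 2.04% in library E, 1.98% in K, 3.46% in L, 8.31% in R and 1.956% in Y. In F0_ABS-MOR it ran from 1.80% to 4.55%. Every abstinent library thus had a larger share than every nonabstinent library, and library R stood far above the rest. Shares follow total count scaling. Under it, the median log2 fold change of all miRNAs was 0.39 in the saline and 0.18 in the morphine comparison. How many other miRNAs separate by share was not counted. After TMM normalization the separation did not hold, as library X of F0_ABS-MOR (28554) lay below the highest F0_MOR library (32126).

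After TMM normalization, the count of miR-143-3p was 27966 ± 1786 (SD, n = 7) in F0_SAL, with a lowest, median and highest value of 24854, 27831 and 30602. In F0_MOR it was 26966 ± 3484 (SD, n = 7), with 23800, 26243 and 32126. In F0_ABS-SAL it was 60018 ± 50181 (SD, n = 5), from 32191 in E, 31924 in K, 52393 in L, 148499 in R and 35080 in Y. All 5 F0_ABS-SAL libraries lay above all 7 F0_SAL libraries, as held for 4.73% of the miRNAs tested, while 6.94% had no overlap in either direction. Its log2 fold change was 1.10 (SE 0.27, edgeR adjusted p = 0.00366). Without library R it fell to 0.40 (adjusted p = 0.142), and the miRNA was no longer called. In F0_ABS-MOR the count was 44269 ± 13489 (SD, n = 6), with 28554, 41751 and 66187. This group overlapped F0_MOR (1.89% of miRNAs tested were higher without overlap and 3.47% had none either way), and the log2 fold change was 0.72 (SE 0.26, edgeR adjusted p = 0.0564). Without library Q, the highest of F0_ABS-MOR, it was 0.58 (0.585 before rounding) with an adjusted p of 0.108.

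**Figure D1:**
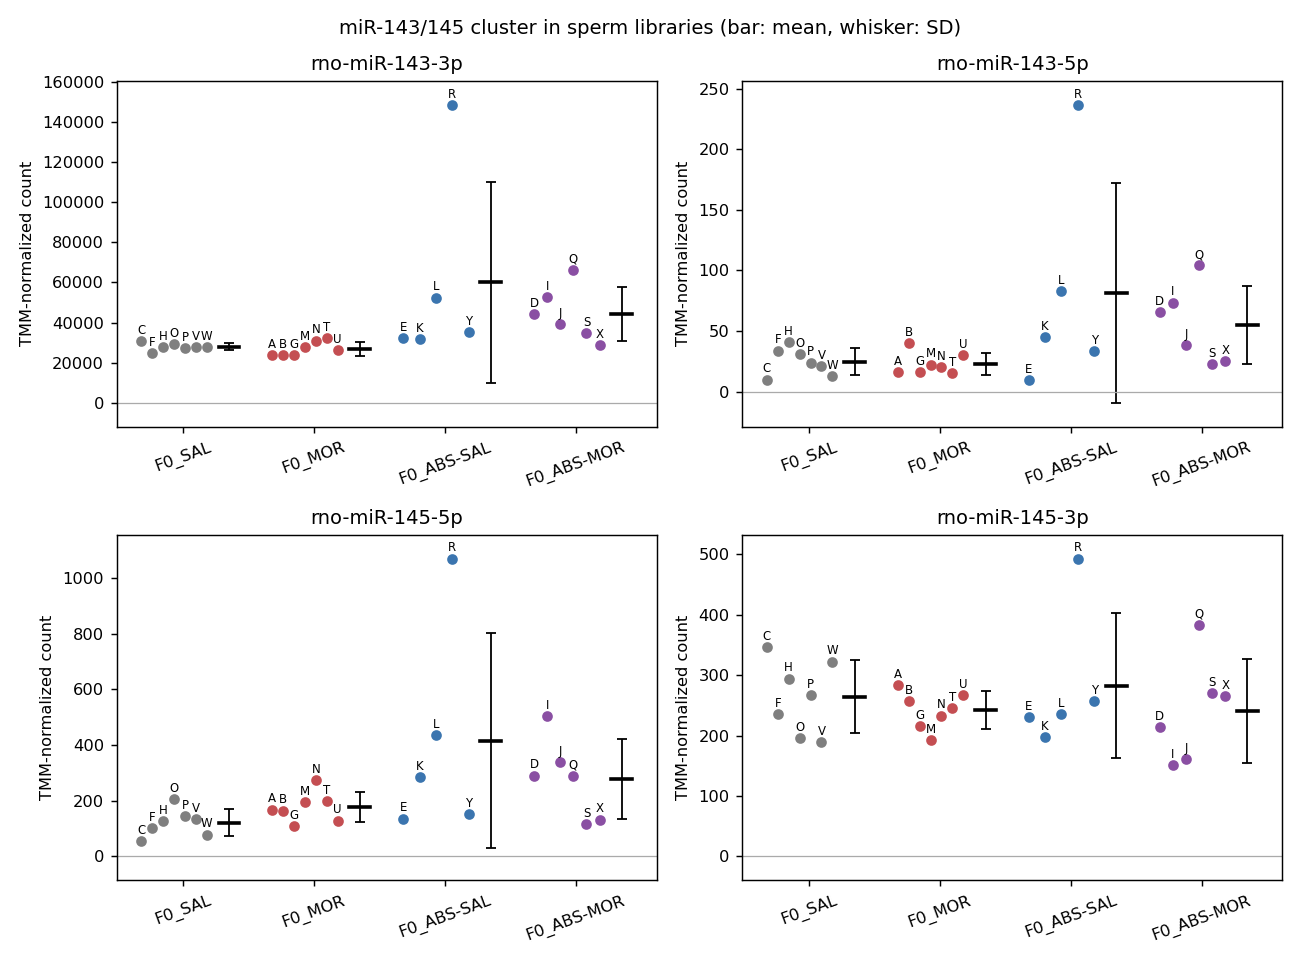
TMM-normalized counts of the 4 arms of the miR-143 and miR-145 cluster in each library (points with library letters) by group, with the mean (bar) and SD (whisker). Nonabstinent libraries of miR-143-3p lie between 23800 and 32126, while F0_ABS-SAL reaches 148499 in library R, which is the highest library of all 4 arms.

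The other arms did not all move with miR-143-3p. For miR-145-5p, the arm known to target Klf4, the normalized count was 121 ± 48.9 (SD, n = 7) in F0_SAL, between 54.7 and 205. It was 177 ± 53.4 (SD, n = 7) in F0_MOR, between 110 and 274. In F0_ABS-SAL it was 136 in E, 285 in K, 436 in L, 1070 in R and 153 in Y. The groups overlapped, with libraries E and Y inside the range of F0_SAL. The log2 fold change between F0_ABS-SAL and F0_SAL was 1.77 (SE 0.40, edgeR adjusted p = 0.00232). Without library R it was 1.02 and still called, with an adjusted p of 0.0503. In F0_ABS-MOR the count was 279 ± 143.4 (SD, n = 6), between 116 and 505, and the log2 fold change from F0_MOR was 0.66 (SE 0.38, edgeR adjusted p = 0.219), which was not called.

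miR-145-3p, from the other arm of the same hairpin, was not called in either timepoint comparison. Its normalized count was 264 ± 60.8 in F0_SAL and 242 ± 31.3 in F0_MOR (SD, n = 7 each). In F0_ABS-SAL it was 230 in E, 198 in K, 235 in L, 493 in R and 257 in Y, and in F0_ABS-MOR it was 241 ± 85.9 (SD, n = 6). The log2 fold change was 0.10 (95% interval -0.37 to 0.56) between F0_ABS-SAL and F0_SAL and -0.01 (95% interval -0.45 to 0.43) between F0_ABS-MOR and F0_MOR. With total count scaling these were 0.43 and 0.20, or 0.04 and 0.02 relative to the median of all miRNAs.

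The ratio of miR-145-5p to miR-145-3p reads within a library does not depend on scaling. It was described after the values of both arms had been seen and was not tested. Its median was 0.436 in F0_SAL (0.158 to 1.05), 0.640 in F0_MOR (0.483 to 1.18), 1.44 in F0_ABS-SAL (0.591 to 2.17) and 1.06 among F0_ABS-MOR libraries (0.431 to 3.35). The 3p arm thus had more reads in most nonabstinent libraries, and the ranges of all 4 groups overlapped. miR-143-3p exceeded miR-145-5p by a median of 217 times in F0_SAL, of 144.9 in F0_MOR, of 139 among F0_ABS-SAL and of 183 among F0_ABS-MOR libraries.

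miR-143-5p, the minor arm of its hairpin, was called in both timepoint comparisons, as miR-143-3p was, but at a far lower level. Its normalized count was 24.8 ± 11.1 in F0_SAL and 22.9 ± 9.18 in F0_MOR (SD, n = 7 each). In F0_ABS-SAL it was 9.72 in E, 44.8 in K, 82.7 in L, 237 in R and 33.5 in Y. Library E was thus the lowest and R the highest of all 12 saline libraries. In the saline comparison the log2 fold change was 1.71 (SE 0.49, edgeR adjusted p = 0.0118), and without library R it was 0.76 (adjusted p = 0.227). In F0_ABS-MOR the count was 54.9 ± 32 (SD, n = 6), between 22.4 and 104. Against F0_MOR the log2 fold change was 1.26 (SE 0.48, edgeR adjusted p = 0.0670), and the call was lost when library A or G of F0_MOR or D, I or Q of F0_ABS-MOR was left out, with 0.997 and an adjusted p of 0.143 without Q.

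Across the 25 libraries, with group means removed, miR-143-3p varied together with miR-145-5p. Pearson's r of log2 CPM was 0.74 (permutation p = 0.00158, adjusted over 11 pairs 0.00869) and Spearman's rho 0.70 (permutation p = 0.00104, adjusted 0.00572). Without libraries Q and R, the farthest from the median of miR-143-3p, r was 0.66. With miR-145-3p, r was 0.50 (permutation p = 0.0760, adjusted 0.206) and rho 0.18 (p = 0.450, adjusted 0.550), and r was -0.05 without Q and R, so this relation rested on those libraries. For miR-143-5p, r was 0.72 (permutation p = 0.00480, adjusted 0.0176) and rho 0.50 (p = 0.0320, adjusted 0.0880), with r at 0.50 without Q and R. Both measures of a pair share a library's scaling factor.

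**Figure D2:**
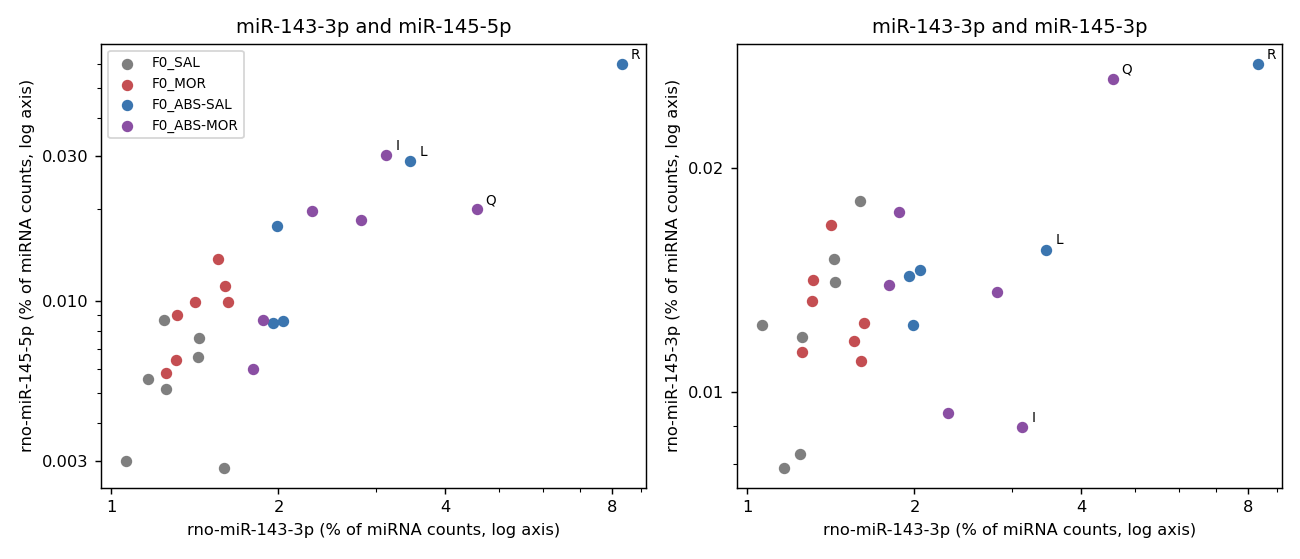
Share of miR-145-5p (left) and miR-145-3p (right) in the miRNA counts of each library against the share of miR-143-3p, all axes on a log scale, with points coloured by group and the 4 libraries R, Q, L and I marked. The 5p arm rises along with miR-143-3p, while the 3p arm does so mainly through R and Q.

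The striated muscle members, miR-1, miR-133 and miR-206, were near the limit of the depth. The striated miR-499-5p, outside the name rule and described in the last section, was not (median normalized count 445). miR-1-3p, the myogenic miRNA of heart and skeletal muscle, had 5 to 24 reads per library in F0_SAL (median 17) and 2 to 23 in F0_MOR (median 9). In F0_ABS-SAL it had 35 reads in E, 7 in K, 9 in L, 47 in R and 37 in Y. In F0_ABS-MOR it had 0 to 23 reads (median 18), with the 0 in library X, which allows up to 2.14 CPM. The groups overlapped in every comparison. The log2 fold change was 0.22 (95% interval -0.90 to 1.34) between F0_ABS-SAL and F0_SAL and -0.31 (95% interval -1.42 to 0.81) between F0_ABS-MOR and F0_MOR, so changes of the size seen for miR-143-3p lay within the interval in the saline comparison and in the morphine comparison alike. The sign in the saline comparison was negative under limma-voom (-0.23).

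miR-133a-3p, which is made with miR-1 but counted apart from it, had 2 to 12 reads in F0_SAL (median 7) and 0 to 25 in F0_MOR (median 6). In F0_ABS-SAL it had 11 reads in E, 21 in K, 36 in L, 64 in R and 9 in Y. In F0_ABS-MOR it had 2 to 38 reads (median 16.5). The log2 fold change between F0_ABS-SAL and F0_SAL was 1.54 (SE 0.62, edgeR adjusted p = 0.0625), with overlapping groups. The call was lost without library R (0.78, adjusted p = 0.378), without library F of F0_SAL (1.36, adjusted p = 0.104) and with limma-voom (0.80, adjusted p = 0.346). Between F0_ABS-MOR and F0_MOR it was 0.55 (SE 0.60, edgeR adjusted p = 0.553).

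**Figure D3:**
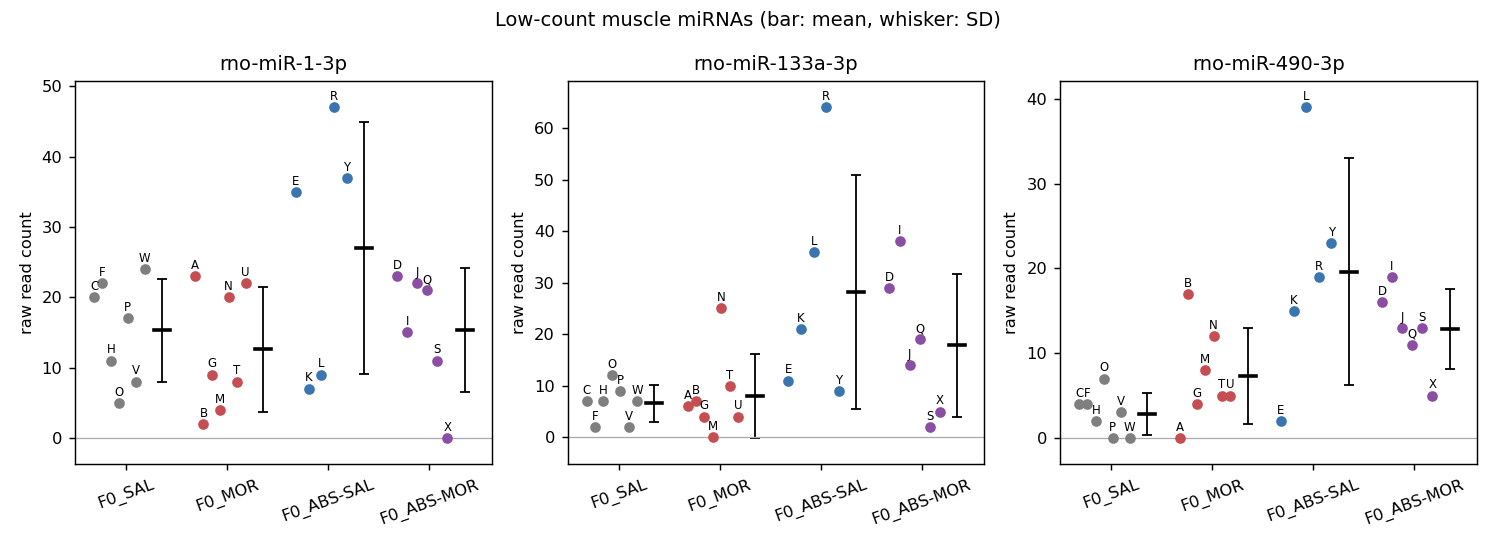
Raw read counts of miR-1-3p, miR-133a-3p and miR-490-3p in each library (points with library letters) by group, with the mean (bar) and SD (whisker). Most libraries hold under 25 reads, and the highest are R for miR-1-3p (47) and miR-133a-3p (64) and L for miR-490-3p (39).

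The skeletal muscle miRNAs were hardly present. miR-206-3p had reads in 3 of 7 F0_SAL, 2 of 7 F0_MOR, 5 of 5 F0_ABS-SAL and 4 of 6 F0_ABS-MOR libraries, with at most 8 reads in any. miR-133b-3p had reads in 4 of the 25 libraries, with 5 in the highest. miR-133a-5p had 3 reads in 1 F0_ABS-SAL library and 2 in 1 F0_ABS-MOR library. They are not compared between groups.

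miR-490-3p had 0 to 7 reads in F0_SAL (median 3) and 0 to 17 in F0_MOR (median 5). In F0_ABS-SAL it had 2 reads in E, 15 in K, 39 in L, 19 in R and 23 in Y, and in F0_ABS-MOR 5 to 19 (median 13). All F0_ABS-SAL libraries but E lay above every F0_SAL library. This gave a log2 fold change of 2.05 (SE 0.63, edgeR adjusted p = 0.0184). Its lowest and highest values on leaving out single libraries were 1.68 and 2.25. The miRNA passed the filter through the groups in which it was higher, and with only F0_SAL and F0_ABS-SAL in the model it did not pass and was not tested. In 7 settings that did test it, no filter among them, the log2 fold change was 2.01 to 2.43 (adjusted p from 0.00402 to 0.0253). From F0_MOR to F0_ABS-MOR it was 0.14 (SE 0.56, edgeR adjusted p = 0.871). miR-490-5p had 39 reads in 8 libraries.

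To set smooth against striated muscle, the log2 ratio of miR-143-3p to miR-1-3p reads was taken within each library, with 0.5 added to both counts. It was 10.75 ± 1.09 in F0_SAL and 11.05 ± 1.05 in F0_MOR (SD, n = 7 each), 11.60 ± 1.36 in F0_ABS-SAL (SD, n = 5) and 12.33 ± 1.67 in F0_ABS-MOR (SD, n = 6). Two-sided exact permutation tests gave a difference of 0.85 between F0_ABS-SAL and F0_SAL (p = 0.251, adjusted over 4 comparisons 0.503). The difference was 1.29 between F0_ABS-MOR and F0_MOR (exact permutation p = 0.0979, adjusted 0.392). It was 0.62 (adjusted p = 0.503, exact permutation test) without library X, whose ratio is set by the added 0.5, and 1.57 (adjusted p = 0.0952, exact permutation test) without library B of F0_MOR. A larger change of miR-143-3p than of miR-1-3p was therefore not shown at this depth. Between treatments the differences were 0.29 (exact permutation p = 0.612) without and 0.74 (exact permutation p = 0.5) after abstinence, both 0.612 when adjusted. Without library X the latter difference was 0.07 (adjusted p = 0.921, exact permutation test), and without library B the former was 0.0095.

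**Figure D4:**
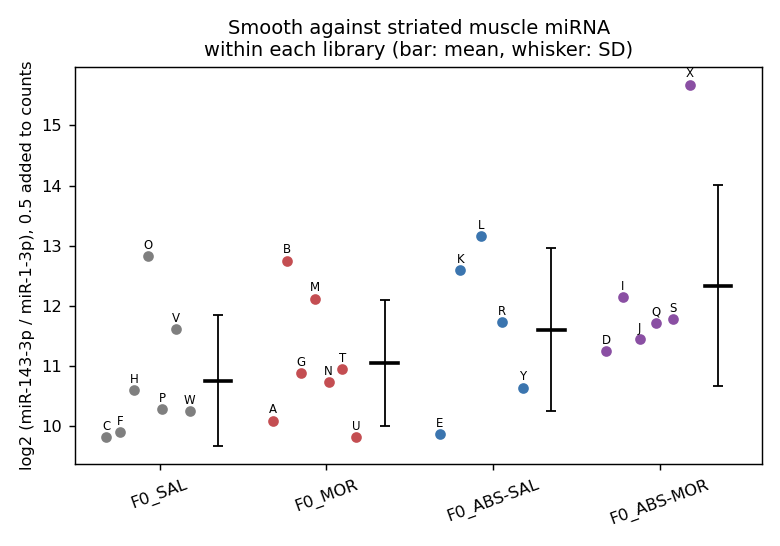
Log2 ratio of miR-143-3p to miR-1-3p reads in each library (points with library letters) by group, with the mean (bar) and SD (whisker). The groups overlap, with means from 10.75 to 12.33, and library X, with no miR-1-3p read, is highest at 15.68.

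With group means removed, miR-143-3p was most like miR-133a-3p (Spearman's rho 0.71), then miR-145-5p (0.70), miR-200a-3p of epithelium (0.64), miR-455-5p (0.58) and miR-10a-5p (0.58) over the 25 libraries. Pearson's r of miR-143-3p with miR-133a-3p was 0.60 (permutation p = 0.00106, adjusted 0.00869; for rho p = 3.30e-04, adjusted 0.00363), and 0.55 without Q and R. For miR-143-3p with miR-490-3p, r was 0.33 (permutation p = 0.165, adjusted 0.259) and rho 0.51 (p = 0.0109, adjusted 0.0399), with r at 0.39 without Q and R. For miR-143-3p with miR-1-3p, r was 0.39 (permutation p = 0.107, adjusted 0.206) and rho 0.24 (p = 0.307, adjusted 0.482), with r at 0.23 without Q and R.

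miR-1-3p and miR-133a-3p, which share a transcript, had an r of 0.28 (permutation p = 0.218, adjusted 0.300) and a rho of 0.26 (p = 0.239, adjusted 0.439), and an r of 0.29 without libraries O and X. The other 4 pairs with miR-1-3p had r between -0.25 and 0.38, with adjusted permutation p-values of 0.206 or more for r and 0.148 or more for rho. The 5 miRNAs most like miR-1-3p were miR-293-5p, miR-465-5p, miR-298-5p, miR-27a-3p and miR-672-5p, with rho from 0.41 to 0.52, and miR-133a-3p ranked 43 of the other miRNAs.

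Between treatments, none of the 7 members tested was called. Between F0_MOR and F0_SAL, edgeR, DESeq2 and limma-voom each called 0 members, and 0% of all miRNAs tested were called with edgeR. An unadjusted p under 0.05 was found for 1 of the 7 members and for 23 of all 317 miRNAs. The member was miR-490-3p, with a log2 fold change of 1.52 (SE 0.64, edgeR adjusted p = 0.547). For miR-143-3p the log2 fold change was -0.05 (95% interval -0.53 to 0.43), an interval inside the fold threshold on both sides. With total count scaling it was 0.13, or -0.12 relative to the median of all miRNAs, which that scaling moved to 0.25. For miR-145-5p it was 0.55 (95% interval -0.18 to 1.27, adjusted p = 0.730).

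After abstinence, comparing F0_ABS-MOR with F0_ABS-SAL, the 3 tools again called 0 members, and with edgeR 0% of all miRNAs were called, with an unadjusted p under 0.05 for 0 of the 7 and 4 of the 317. All 7 fitted log2 fold changes were below 0, from -0.82 (miR-1-3p) to -0.23 (miR-145-3p). For miR-143-3p it was -0.44 (95% interval -0.98 to 0.10), and without library R it was 0.19. The sign for the cluster thus turned on that library.

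Whether the effect of morphine differed between timepoints was tested as the log2 fold change without abstinence minus that after abstinence. No member was called (0 with edgeR, DESeq2 or limma-voom), and an unadjusted p under 0.05 was found for 10 of the 317 miRNAs and 1 of the 7 members, miR-490-3p at 1.90 (SE 0.85, edgeR adjusted p = 0.953). For miR-145-5p it was 1.12 (SE 0.55, edgeR unadjusted p = 0.0513, adjusted p = 0.953) and for miR-143-3p 0.39 (SE 0.37, edgeR adjusted p = 0.953). The call of miR-145-5p in the saline but not in the morphine timepoint comparison thus does not show a difference between them.

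**Figure D5:**
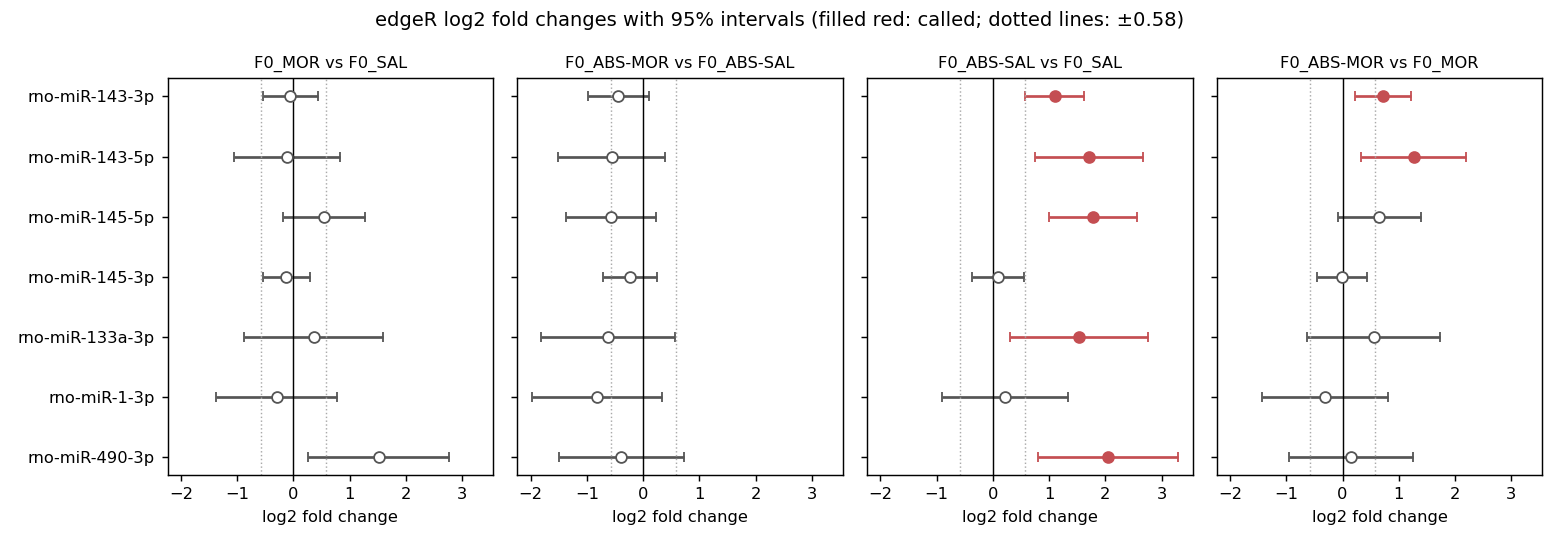
Log2 fold changes of the 7 members tested in the 4 comparisons, with approximate 95% intervals, filled red where called and with dotted lines at the fold change threshold of 0.58. The calls are 5 for F0_ABS-SAL against F0_SAL, 2 for F0_ABS-MOR against F0_MOR and 0 in each treatment comparison.

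Markers of other cell types also differed between timepoints, and each marker tested had reads in at least 24 of the 25 libraries. Beside the calls below, 22.4% of all miRNAs tested were called higher in the saline and 11% in the morphine comparison. The summed normalized count of the endothelial miR-126a arms was 1003 to 1439 in F0_SAL and 1300 to 5182 in F0_ABS-SAL, and 2 of 2 were called higher in the saline and 2 of 2 in the morphine comparison. Of the mesenchymal miR-199a and miR-214 arms, 3 of 3 and 1 of 3 were called higher, with sums of 1058 to 5167 in F0_SAL and 3388 to 7107 in F0_ABS-SAL. In the morphine comparison these sums were 1072 to 1346 in F0_MOR and 1903 to 2677 in F0_ABS-MOR for endothelium, and 1951 to 5401 and 3073 to 6460 for mesenchyme. Of the epithelial miR-200 family arms, 5 and 3 of the 7 tested were called higher. Their sums were 11908 to 19636 in F0_SAL, 13541 to 20586 in F0_MOR, 15806 to 34853 in F0_ABS-SAL and 16095 to 31989 in F0_ABS-MOR.

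Single markers showed the same timepoint pattern in part. Compared with F0_SAL, the F0_ABS-SAL log2 fold change was 1.25 for miR-126a-3p, 0.99 for miR-199a-3p and 0.66 for miR-200b-3p, each called. The corresponding values between F0_ABS-MOR and F0_MOR were 0.88 (called), 0.36 and 0.47 (not called).

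No blood marker tested was called higher in either timepoint comparison. Of 6 leukocyte miRNAs tested, 0 and 1 were called lower and none higher, and of 3 erythroid miRNAs 0 and 3 were called lower. Of all miRNAs tested, 10.7% and 10.1% were called lower in the same comparisons. For erythroid miR-451-5p the log2 fold changes were -0.39 (not called) and -0.95 (called), and for leukocyte miR-142-3p 0.22 and 0.37 (neither called). Summed leukocyte counts were 1370 to 2246 in F0_SAL, 1648 to 2515 in F0_MOR, 1426 to 2060 in F0_ABS-SAL and 1428 to 2288 in F0_ABS-MOR. Summed erythroid counts were 1706 to 5040, 1744 to 4366, 1202 to 2309 and 565 to 2378 in the same order.

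Of 18 male germ cell miRNAs tested, 6 in the saline and 2 in the morphine comparison were called lower after abstinence and none higher. The share of all miRNAs called lower was 10.7% and 10.1%, so the 2 of 18 was near that share. Their share of the miRNA counts was 42.0% to 60.5% in F0_SAL, 39.2% to 49.7% in F0_MOR, 30.2% to 47.9% in F0_ABS-SAL and 26.4% to 49.2% in F0_ABS-MOR. Library R, with the most miR-143-3p, had the lowest summed germ cell count of F0_ABS-SAL (540415) and the highest epithelial (34853), and its endothelial sum (3285) was below that of L (5182). Library Q likewise had the lowest germ cell count of F0_ABS-MOR (383171), together with the lowest erythroid (565) and mesenchymal (3073) sums. Library X went the other way, with the lowest normalized miR-143-3p count of F0_ABS-MOR (28554). Yet its germ cell sum was the next lowest of that group after Q (485897) and its epithelial sum the highest (31989). In bulk samples, more cells of a type and more RNA per cell cannot be told apart, and the part of these cell types in the changes of the muscle miRNAs was not tested.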

How the data were processed

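The members and lists were chosen with earlier results of these data known. The authors prepared libraries with the NEBNext small RNA kit, used forward reads of 150 nt, and with sRNAbench trimmed adaptors, aligned to the rat genome (Rnor_6.0) with 1 mismatch and annotated reads to miRBase. They deposited raw read counts per mature miRNA, 1 column per library and without normalization. No count was 1 and the smallest above 0 was 2. Counts on other ncRNAs were not used here. Columns carry a letter, REG or TO, and SAL or MOR. REG and TO were taken as nonabstinent and abstinent because only this match gives the group sizes of the labels, and libraries are named by letter since no label does so. Labels number biological replicates but do not say that each is a separate male. The p-values measure the spread between these samples, whether or not each is a separate male. All 300 pairs of libraries differed beyond sampling noise (chi-square per degree of freedom at least 35.1).

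Counts were tested in R 4.3.3 with edgeR 4.0.16 (TMM, its filter on low counts, quasi-likelihood test, Benjamini-Hochberg over 317 miRNAs). The study used DESeq2 with the same grouping and criteria. Between F0_MOR and F0_SAL it reported rno-miR-150-5p, which is not a member here, and also measured it by qPCR. DESeq2 as run here called 0 miRNAs in that comparison, and the reason for this difference was not tested. Normalized counts are TMM-scaled to the geometric mean library size, and log2 CPM used a prior count of 2. Correlation p-values came from 100000 permutations within groups. All rows matching the name rule are given, together with the 5 miRNAs most like miR-143-3p and miR-1-3p. The alternatives were DESeq2 1.42.0, limma-voom from limma 3.58.1 (sample weights on), total count scaling or DESeq2 size factors inside edgeR, no filter, a minimum of 10 counts per library, models of only the groups compared, robust dispersion, log2 total count as a covariate, each library left out and, for the ratio, a prior count of 2.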

Additional observations from a re-analysis of the deposited data

Results flagged for a closer look

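For each member tested, the ratio of miR-143-3p to miR-1-3p and the total count, the extreme libraries of every group were checked for a gap to the next. Of these 36 checks, 3 found a library apart, and chance alone would give about 1.8. The log2 CPM of miR-1-3p in F0_ABS-MOR was lowest in library X at 0.052, with the next at 2.63, because X had no read of it. For the same reason the log2 ratio of miR-143-3p to miR-1-3p was highest in library X at 15.68, with the next at 12.14. The log2 CPM of miR-145-3p in F0_ABS-SAL was highest in library R at 8.07, with the next at 7.14. The count of miR-143-3p in R was not set apart by this check, since library L was also high.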

How the results depend on the processing

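The number of members called was 5 between F0_ABS-SAL and F0_SAL and 2 between F0_ABS-MOR and F0_MOR. It was 3 in the saline comparison with limma-voom, which lost miR-143-5p (adjusted p = 0.103) and miR-133a-3p. With at least 10 counts in every library it was 2 and 1, since only 3 members were then tested. With each library left out in turn it lay between 2 and 5 in the saline comparison, with 2 without library R, and between 0 and 2 in the morphine comparison, with 0 without library Q and 1 without library A, G, D or I. Both treatment comparisons and the interaction kept 0 members called in every setting run. Of all miRNAs, 65 rather than 105 were called in the saline comparison without library R, and 1 rather than 0 between F0_MOR and F0_SAL with limma-voom or without library H. With all libraries kept, 9 other settings were run, under which the log2 fold change of miR-143-3p lay between 0.59 and 1.44 in the saline comparison (adjusted p from 1.77e-04 to 0.0374) and between 0.64 and 0.93 in the morphine comparison (0.0111 to 0.0574). With only the groups compared in the model, miR-145-5p was also called between F0_ABS-MOR and F0_MOR (0.71, adjusted p = 0.0948), and miR-490-3p was not tested in the saline comparison, where 4 members were called. The adjusted p of the ratio of miR-143-3p to miR-1-3p was lowest without library B (0.0952, F0_ABS-MOR against F0_MOR), under 0.1 but not under 0.05, and was at least 0.1 with all libraries kept. Low counts limited the striated members most. No paired analysis was possible because the matrix columns carry no replicate numbers.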

Other observations

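A further striated muscle miRNA, rno-miR-499-5p, which lies in a myosin heavy chain gene, was much more abundant than miR-1-3p and miR-133a-3p. Its median normalized count over the 25 libraries was 445, against 17.2 for miR-1-3p and 9.68 for miR-133a-3p, and it had reads in all 25. Other rows of that list were nearly empty, with 2 reads of miR-499-3p and 2 of miR-208b-3p in all. None of the comparisons called miR-499-5p. Its level after abstinence relative to that before was -0.39 (SE 0.23, edgeR adjusted p = 0.184) on the log2 scale in saline males, and for miR-499-5p in morphine males -0.26 (SE 0.22, edgeR adjusted p = 0.427).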
